A study of Mus musculus with 16 samples.

Results

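Levels of 7 RNAs that do not code for protein were followed in CA1, the output subfield of the hippocampus, of wild-type and Neil3-/- mice. They are 4 ribosomal RNA entries (Rn18s, Rn45s, Rn28s1 and Rn4.5s), the small neuronal RNA Bc1, and the long noncoding RNAs Malat1 and Meg3, 7 of the 17986 genes that have a value in every library. They were chosen on these same data, because their FPKM differed strongly between the home cage libraries and the exploration libraries. FPKM is the number of sequenced fragments per unit of transcript length and of sequencing depth. The differences of the 7 RNAs between environments are therefore given as a description, without a test. Their tests are kept for the genotype label, which played no part in the choice. Genes of further lists, drawn up with earlier results of these data known, were also tested between environments.

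All mice were males of 3 to 6 months on a C57Bl6 background. Neil3 encodes a DNA glycosylase of base excision repair. Home cage mice (2 labelled wild type, 2 labelled Neil3-/-) were taken without any intervention, and exploration mice (3 and 3) spent 20 min a day for 1 week in an open arena of 50 cm with a cue card and food, with death 20 min after the final session. Frozen brains were cut at 8 µm and CA1 was taken by laser dissection, with 1 library of paired reads per sample. The labels list 6 further samples of a learning condition, which were not analysed here.

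Ribosomal RNA is made as 1 long precursor, called 45S, which RNA polymerase I transcribes and nucleolar enzymes cut into the 18S, 5.8S and 28S RNAs of the ribosome. Mature ribosomal RNA is the bulk of cellular RNA and carries no poly(A) tail, so its share of a library depends on how the library is made. BC1 is a short RNA polymerase III transcript of rodent neurons that travels into dendrites and represses translation at synapses. Malat1 is an abundant nuclear RNA kept in nuclear speckles, where splicing factors gather. Meg3 is expressed from the maternal copy of an imprinted domain that also holds the noncoding RNAs Rian and Mirg, and it binds the repressive complex PRC2.

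Sequence of the Bc1 and Malat1 RNAs is shown because both lack an ordinary poly(A) tail and carry A-rich stretches in their own sequence. How RNA was selected for the libraries is not given in the sources used here, and its part in the values below was not tested. Bc1 lies at chr7:144914470-144914637 on the plus strand (GRCm38, GENCODE transcript of 168 nt, an exon with no intron). RefSeq lists a shorter Bc1, of 154 bp at chr7:144914470-144914623. The whole GENCODE transcript is shown, with its A-rich stretch in capitals. That stretch covers positions 77 to 136, is 81.7% A and opens with a run of 23 A.
Bc1: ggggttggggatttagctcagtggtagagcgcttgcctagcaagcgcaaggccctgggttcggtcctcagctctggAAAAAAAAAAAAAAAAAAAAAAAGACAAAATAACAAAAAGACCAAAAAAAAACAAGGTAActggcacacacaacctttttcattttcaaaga
Malat1 lies at chr19:5795690-5802672 on the minus strand. Positions 6644 to 6721 of its 6983-nt transcript are shown, with the A-rich tract at positions 6674 to 6691 in capitals. This tract is known to fold into a triple helix at the end of the mature nuclear RNA, and the bases after it are cut off as a small tRNA-like RNA.
Malat1 3' part: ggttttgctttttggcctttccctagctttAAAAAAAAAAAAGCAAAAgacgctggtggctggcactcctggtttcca
Meg3 lies at chr12:109540996-109571729 on the plus strand and is a long spliced RNA. In RefSeq (GRCm38.p6), Rn28s1 is annotated as an rRNA of 420 bp at chr11:112627-113046 and Rn4.5s as an rRNA of 174 bp at chr6:47654921-47655094. No coordinates are given for Rn18s and Rn45s.

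Meg3 and Malat1 both stood lower in the exploration libraries, and their RefSeq promoter windows (250 bases before the start to 50 after it) were searched on both strands for the cAMP response element TGACGTCA and for the shorter TGACG, which lies within it. The element is the binding sequence of CREB, a transcription factor activated by neuronal activity. The windows are chr12:109540746-109541045 on the plus strand and chr19:5802623-5802922 on the minus strand, and matches to the shorter motif on either strand are in capitals.
Meg3 promoter: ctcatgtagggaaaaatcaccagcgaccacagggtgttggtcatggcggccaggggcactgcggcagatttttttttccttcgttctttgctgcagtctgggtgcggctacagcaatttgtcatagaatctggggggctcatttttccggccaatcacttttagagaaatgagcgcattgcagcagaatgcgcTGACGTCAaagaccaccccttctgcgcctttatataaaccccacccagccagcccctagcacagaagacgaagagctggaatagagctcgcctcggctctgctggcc
Malat1 promoter: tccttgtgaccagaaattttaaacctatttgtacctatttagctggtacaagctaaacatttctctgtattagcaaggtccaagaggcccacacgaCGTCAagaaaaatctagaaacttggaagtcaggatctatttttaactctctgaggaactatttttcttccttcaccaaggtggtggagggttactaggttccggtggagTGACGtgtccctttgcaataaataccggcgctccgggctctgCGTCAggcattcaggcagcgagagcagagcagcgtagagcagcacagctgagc
The Meg3 window held the whole element, starting 57 bases before the transcription start. That element is found in 1.79% of 32851 mouse promoter windows. The Malat1 window held 3 matches to the shorter motif and no whole element, and such a match is found in 20.8% of all windows. A second RefSeq start of Meg3 and the Bc1 window held neither. The Bc1 window did hold a match to the A box, the internal promoter of RNA polymerase III genes, at base 14 of the RNA. The Meg3 window shown above also held an A box match, starting at base -1 from the transcription start. Such a match is found in 22.4% of windows. These matches describe letters only.

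Neil3 went against the labels. The 5 libraries labelled wild type had at most 0.05 FPKM, and the 5 labelled Neil3-/- had 8.35 to 15.22 FPKM. The groups are therefore called WT-labelled and KO-labelled throughout, and each direction is KO-labelled relative to WT-labelled. The 6 markers of CA1 pyramidal neurons were detected in all 10 libraries (summed level 641 to 780 FPKM), and 4 dentate granule cell markers together stayed under 1 FPKM. Depth came to about 18060000 to 19320000 fragments in each library, estimated from the FPKM values. Each environment has a deposited table of its own, so environment and table cannot be told apart in any value below. In bulk tissue fewer cells of a type cannot be told apart from less RNA per cell.

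Rn18s, the RNA of the small ribosomal subunit, showed the widest gap between environments on the log2(FPKM + 1) scale. In the home cage it measured 1714.68 and 1743.79 FPKM in the WT-labelled libraries and 1857.47 and 2398.35 in the KO-labelled libraries. After exploration it measured 5.69, 8.61 and 9.46 FPKM in the WT-labelled and 10.56, 8.48 and 8.14 in the KO-labelled libraries. The 2 environments were far apart and no library stood between them. Mean Rn18s was 1929 ± 319 FPKM (SD, n = 4) in the home cage and 8.49 ± 1.62 FPKM (SD, n = 6) after exploration, a 227-fold difference, and the nearest libraries still differed 162-fold. Its rank by FPKM went from between 4 and 9 in the home cage to between 5916 and 7781 after exploration. Rn18s alone held 0.413% to 0.591% of all FPKM in the home cage libraries and 0.00129% to 0.00226% in the exploration libraries.

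Rn45s, the precursor entry, went the same way at a much lower level. It measured 3.83 and 4.45 FPKM (WT-labelled) and 5.98 and 7.82 FPKM (KO-labelled) in the home cage. The exploration values were 0.01, 0.03 and 0.03 FPKM (WT-labelled) and 0.03, 0.01 and 0.01 FPKM (KO-labelled), at the limit of the 2 decimals of the table. The means differed 276-fold, 177-fold among WT-labelled and 414-fold among KO-labelled libraries. These ratios hang on the rounding of the exploration values, so they are not set against the ratio for Rn18s. Within home cage libraries Rn18s stood 307 to 448 times above Rn45s, and in exploration libraries 287 to 848 times, where the rounding of Rn45s sets the range. The 18S and 28S sequences are parts of the precursor, so how the authors' quantification split fragments among these entries is uncertain.

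Rn28s1, an entry for the RNA of the large subunit, stood the opposite way. The WT-labelled home cage libraries had 0 and 0 FPKM and the KO-labelled ones 0.01 and 0 FPKM. After exploration it measured 2.24, 4.57 and 3.96 FPKM (WT-labelled) and 3.21, 2.46 and 2.62 FPKM (KO-labelled). Every exploration library thus lay above every home cage library, and no fold is given against a group listed at 0. Rn28s1 was 0.29 to 0.531 of Rn18s within the exploration libraries, while in the home cage the ratio was 0.00 in all 4. The 18S and 28S RNAs come from the same precursor, yet these entries were opposite between the environments. The Rn28s1 entry spans only 420 bp, and whether it measures mature 28S RNA was not tested. Within the 6 exploration libraries it ran with Rn18s (Pearson r = 0.58) and with Rn45s (0.9), which is near 0 there.

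Rn4.5s, a small RNA of rodents that associates with poly(A) RNA and is listed as a ribosomal entry, was 11.88 and 10.72 FPKM (WT-labelled) and 10.83 and 7.74 FPKM (KO-labelled) in the home cage. The exploration values were 0, 0 and 0.45 FPKM (WT-labelled) and 0 in the 3 KO-labelled libraries. It was present throughout 1 table and nearly absent from the other.

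Bc1 stood higher after exploration than in the home cage, with the largest upward difference of the 7 on the log2(FPKM + 1) scale (at a pseudocount of 0.1 that of Rn28s1 was larger, 4.95 against 2.41). It measured 30.37 and 22.92 FPKM (WT-labelled) and 94.75 and 33.94 FPKM (KO-labelled) in the home cage. After exploration it measured 223.8, 195.3 and 235.57 FPKM (WT-labelled) and 248.06, 214.13 and 139.51 FPKM (KO-labelled). The environments did not overlap, and the closest libraries, KO-labelled home cage replicate 1 and KO-labelled exploration replicate 3, differed 1.47-fold. Mean Bc1 was 45.5 ± 33.2 FPKM (SD, n = 4) in the home cage and 209 ± 38.7 FPKM (SD, n = 6) after exploration, 4.6-fold higher. The ratio of means was 8.19 among WT-labelled and 3.12 among KO-labelled libraries, and the difference between these responses did not pass the test given below.

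Malat1 measured 50.29 and 60.92 FPKM (WT-labelled) and 28.71 and 38.91 FPKM (KO-labelled) in the home cage. It measured 11.2, 11.32 and 16.19 FPKM (WT-labelled) and 15.87, 15.52 and 11.08 FPKM (KO-labelled) after exploration. Means were 44.7 ± 13.9 FPKM (SD, n = 4) and 13.5 ± 2.56 FPKM (SD, n = 6), 3.3-fold lower after exploration with no overlap.

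Meg3 showed a wider gap than Malat1, in the same direction. In the home cage it measured 114.11 and 128.85 FPKM (WT-labelled) and 71.35 and 82.65 FPKM (KO-labelled). After exploration it measured 22.02, 21.21 and 24.43 FPKM (WT-labelled) and 22.58, 18.94 and 6.67 FPKM (KO-labelled). Mean Meg3 was 99.2 ± 26.8 FPKM (SD, n = 4) in the home cage and 19.3 ± 6.45 FPKM (SD, n = 6) after exploration, 5.14-fold lower. KO-labelled exploration replicate 3 was far under the other exploration libraries, while its Malat1, at 11.08 FPKM, lay just under the next lowest at 11.2 FPKM. The ratio of Meg3 to Malat1 was 2.12 to 2.49 in the home cage libraries and 1.22 to 1.97 in exploration libraries other than this one, where it was 0.602.

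**Figure D1:**
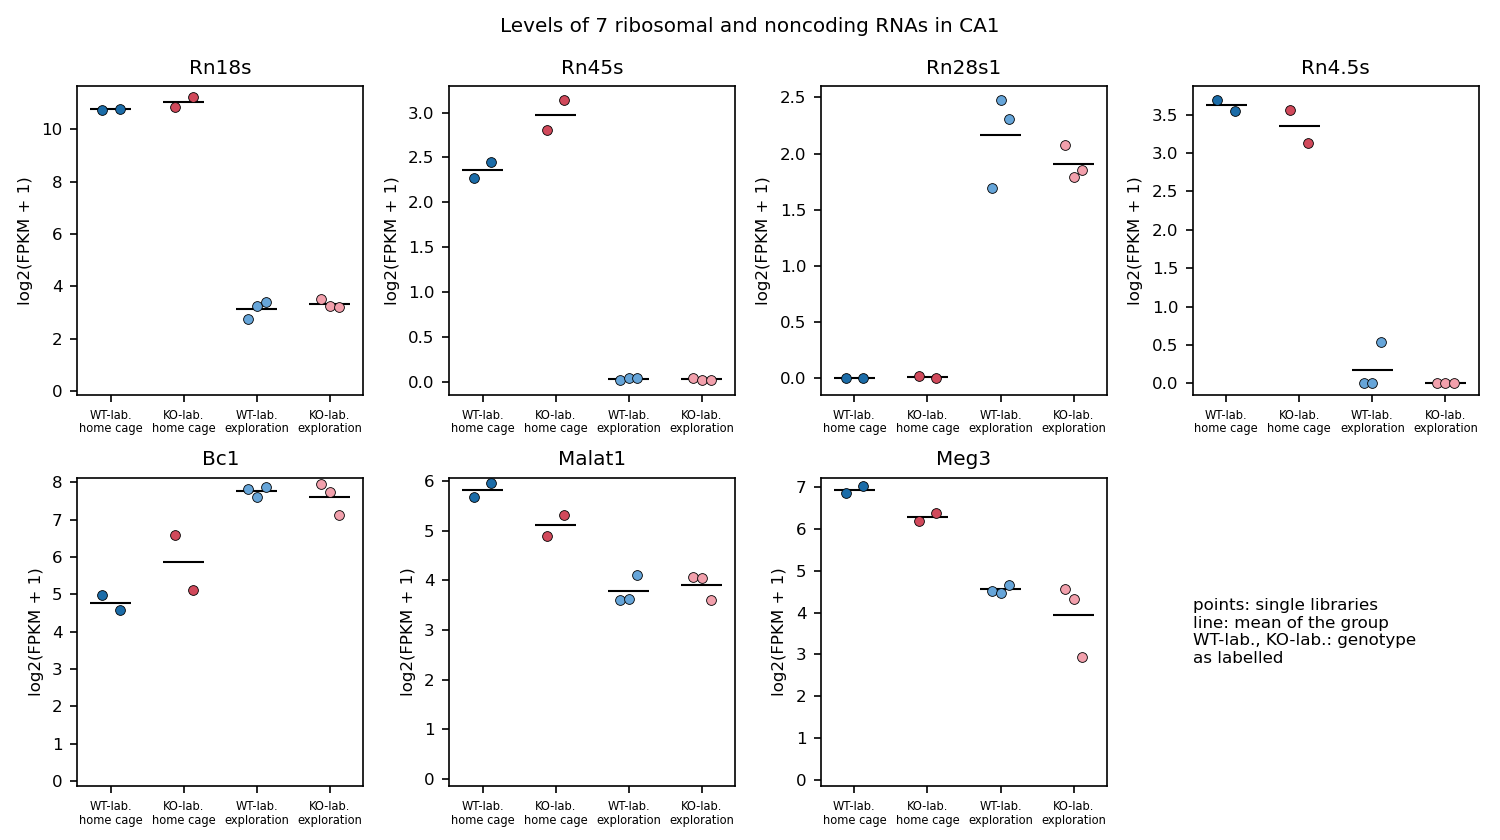
Level of each of the 7 RNAs, as log2(FPKM + 1) on the vertical axis, in the 4 groups on the horizontal axis; points are libraries and lines are group means. In each panel the home cage and exploration libraries do not overlap, and only Rn28s1 and Bc1 are higher after exploration.

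All 7 RNAs separated the environments without overlap. Over the 11892 genes tested, 6.49% were higher in every exploration library than in every home cage library and 10.4% were lower in this sense, and nothing is read from the count of members because the rule used this contrast. On the log2(FPKM + 1) scale the difference, exploration minus home cage, was -7.67 for Rn18s, -3.39 for Rn4.5s, -2.64 for Rn45s, -2.36 for Meg3 and -1.62 for Malat1. The difference was 2.38 for Bc1 and 2.03 for Rn28s1. The median gene differed by -0.03, and the 5th and 95th percentiles were -0.48 and 0.35. Rn18s was the lowest of all genes, Rn4.5s and Rn45s followed directly, and Bc1 was the second highest.

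**Figure D2:**
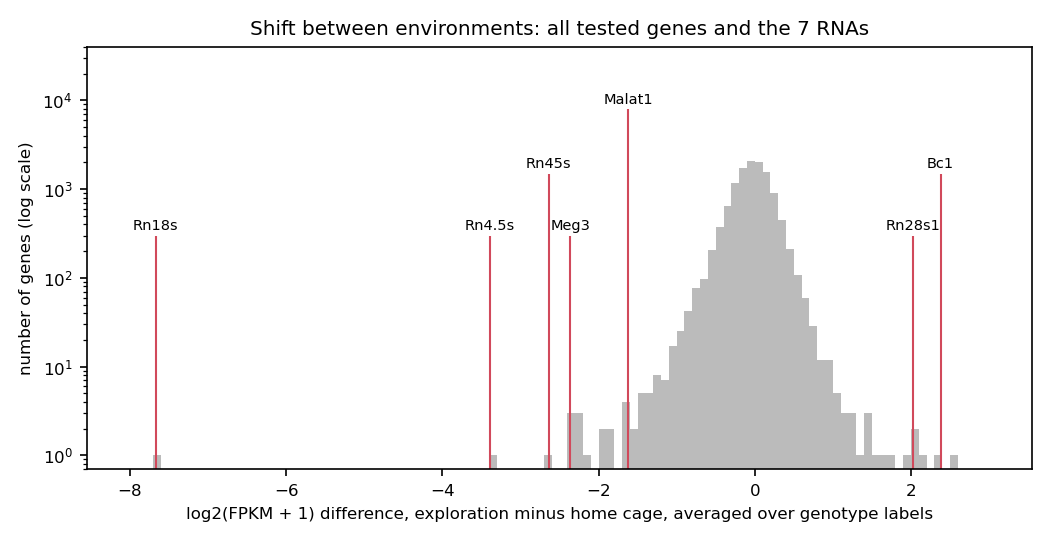
Histogram of the log2(FPKM + 1) difference, exploration minus home cage, for 11892 tested genes (horizontal axis), with the number of genes on a log scale (vertical axis); red lines mark the 7 RNAs. Rn18s stands alone at -7.67, and Bc1 at 2.38 is near the upper end.

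The genotype label was tested with limma on log2(FPKM + 1) over all genes, with Benjamini-Hochberg adjustment. In the home cage 1 of the 7 members was called at an adjusted p under 0.05, where 3.57% of all genes were called. After exploration 0 of 7 were called, where 0.597% of all genes were. Averaged over environments 0 of 7 were called, beside 2.13% of all genes, and for the difference of the genotype effects between environments 0 of 7, beside 0.875%. At an unadjusted p under 0.05 the home cage comparison held Rn45s, Bc1 and Malat1, and the averaged comparison held Rn45s, Malat1 and Meg3. The difference between environments held Rn45s, Bc1 and Malat1, and the comparison after exploration held none. The share of all genes under this unadjusted threshold was not counted, so nothing is read from these members.

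Rn45s was the member called. In the home cage it was higher in both KO-labelled than in both WT-labelled libraries (6.9 ± 1.3 against 4.14 ± 0.438 FPKM, SD, n = 2 each), by 0.61 on the log2(FPKM + 1) scale (SE 0.14, adjusted p = 0.038 in limma). The call rests on a spread that is shared with the exploration libraries, where Rn45s is listed near 0 and hardly varies on this scale. It was lost with the home cage groups alone (adjusted p = 0.0718) and at a pseudocount of 0.1 (adjusted p = 0.304), and when any 1 of 7 libraries was left out (adjusted p = 0.0511 to 0.261). Rn18s was also higher in both KO-labelled home cage libraries, by 0.29 (SE 0.19, adjusted p = 0.464), and did not pass the test.

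Malat1 was lower in both KO-labelled home cage libraries, with no overlap, by -0.71 on the log2(FPKM + 1) scale (SE 0.21, adjusted p = 0.0843 in limma). Meg3 was likewise lower without overlap, by -0.65 (SE 0.37, adjusted p = 0.391). Neither passed the test in the fit of all libraries. Both passed with the home cage groups alone (limma adjusted p = 0.0366 for Malat1 and 0.0185 for Meg3) or when KO-labelled exploration replicate 3 was left out (0.0468 and 0.015). After exploration the groups overlapped for Malat1 (0.13, SE 0.17, adjusted p = 0.732) and for Meg3 (-0.62, SE 0.31, adjusted p = 0.323), and without KO-labelled replicate 3 the Meg3 value was -0.12 (adjusted p = 0.579). Beside these values, the summed level of 5 astrocyte markers was 57.99 and 64.03 FPKM in WT-labelled and 90.42 and 116.46 FPKM in KO-labelled home cage libraries, and that of 5 oligodendrocyte markers was 126.82 to 151.53 and 173.82 to 210.94 FPKM. Their part in the Malat1 and Meg3 values was not tested.

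Bc1 was 1.08 higher in KO-labelled home cage libraries (SE 0.37, adjusted p = 0.14 in limma), which rested mainly on replicate 1 at 94.75 FPKM. With KO-labelled home cage replicate 2 left out, the change was 1.81 (adjusted p = 0.049), a call that depends on replicate 1 alone. The genotype effect differed between environments by -1.24 for Bc1 (SE 0.48, adjusted p = 0.221) and by 0.84 for Malat1 (SE 0.26, adjusted p = 0.138), neither past the test. Between genotype labels Rn28s1 differed by -0.25 after exploration (SE 0.17, adjusted p = 0.47) and Rn4.5s by -0.27 in the home cage (SE 0.19, adjusted p = 0.5). In the other environment each is listed at or near 0, so no difference could be read there.

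**Figure D3:**
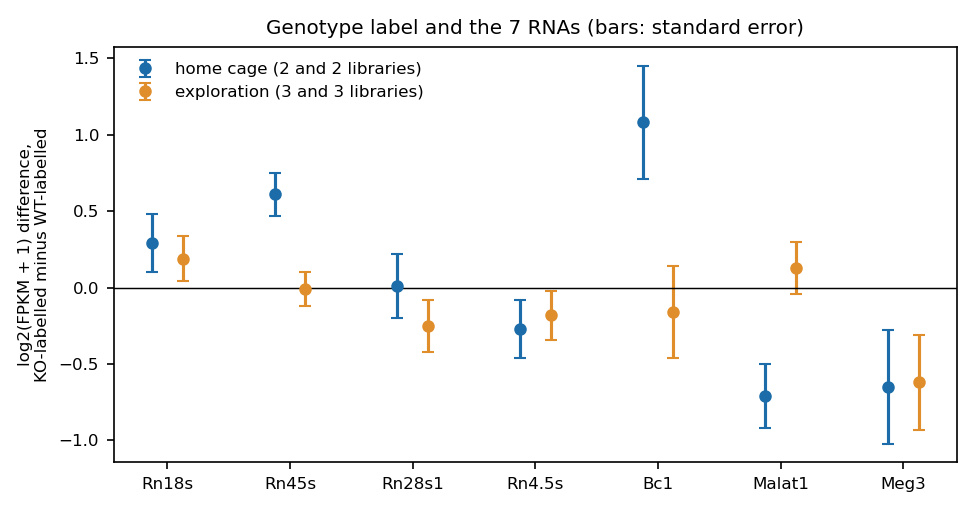
Difference between KO-labelled and WT-labelled libraries on the log2(FPKM + 1) scale (vertical axis) for each of the 7 RNAs (horizontal axis), in the home cage (blue) and after exploration (orange); bars are standard errors. Rn45s in the home cage at 0.61 is the value called, and Bc1 and Malat1 have their larger differences in the home cage.

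Other long noncoding RNAs were read from a list of 25 genes, of which 18 were tested. In the comparison of environments averaged over genotype labels, 31.9% of all genes were called, 12.6% as higher and 19.2% as lower after exploration. Higher genes were 39.7% of those called, 51.8% with median-of-ratios size factors and 16.4% with libraries scaled to the same sum without the 7 RNAs. Of the 18 RNAs, 7 fell and 3 rose, and their median difference was -0.10 against -0.03 for all genes. The 7 falls include Kcnq1ot1, which was tested only because it passed the filter through the home cage libraries. Kcnq1ot1 measured 1.05 to 1.47 FPKM there and 0.16 to 0.23 FPKM after exploration (-0.86, and -2.09 at a pseudocount of 0.1). The falls were large for Miat (-2.27, SE 0.23, adjusted p = 0.000106 in limma), Mir124a-1hg, the host gene of the neuronal microRNA miR-124 (-2.24, SE 0.32, adjusted p = 0.000705), and Ftx, an RNA of the X-inactivation centre (-1.99, SE 0.18, adjusted p = 4.23e-05). Miat went from 15.92 to 27.71 FPKM in the home cage to 0.84 to 5.23 FPKM after exploration. The rises were smaller, 0.57 for Epb41l4aos and 0.5 for Pantr1. Epb41l4aos lost its call without home cage replicate 2 of either genotype label (0.069 and 0.106). Tug1 fell by only 0.2, and 2900097C17Rik, at 306.59 to 382.42 FPKM, differed by 0.07 (adjusted p = 0.354).

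Within the imprinted domain the 3 RNAs did not move alike. Meg3 was 5.14-fold lower after exploration. Mirg, the host of a microRNA cluster, fell by 1.3 on the log2 scale (SE 0.33, adjusted p = 0.0122 in limma). It measured 7.57 to 13.66 FPKM in the home cage and 0.87 to 7.9 FPKM after exploration, so the environments overlapped. Without KO-labelled exploration replicate 3, which held the lowest value, the Mirg difference was -0.99. Rian, which hosts small nucleolar RNAs, measured 106.12 to 129.34 FPKM in the home cage and 89.75 to 142.47 FPKM after exploration (0.03, SE 0.11, adjusted p = 0.856). The 3 values are set side by side, and the differences between the genes were not tested.

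The genes whose levels ran most like Meg3 over the 10 libraries, among genes with a mean of at least 5 FPKM, were Miat (Pearson r = 0.997), the noncoding snoRNA host Snhg11 (0.996) and Fam193b (0.993). The libraries form 2 clusters by table, which raises any such r. Over the 6 exploration libraries alone the values were 0.98, 1.0 and 0.95, and they lean on KO-labelled replicate 3. In that library Snhg11 measured 5.25 FPKM against 19.58 to 24.76 in the other exploration libraries, and Miat 0.84 against 3.84 to 5.23. Of the 7 long noncoding RNAs that fell, 6 had their lowest value of all libraries there. Of the 2286 genes called lower after exploration 46.1% did so, and of all genes 22.1%.

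**Figure D4:**
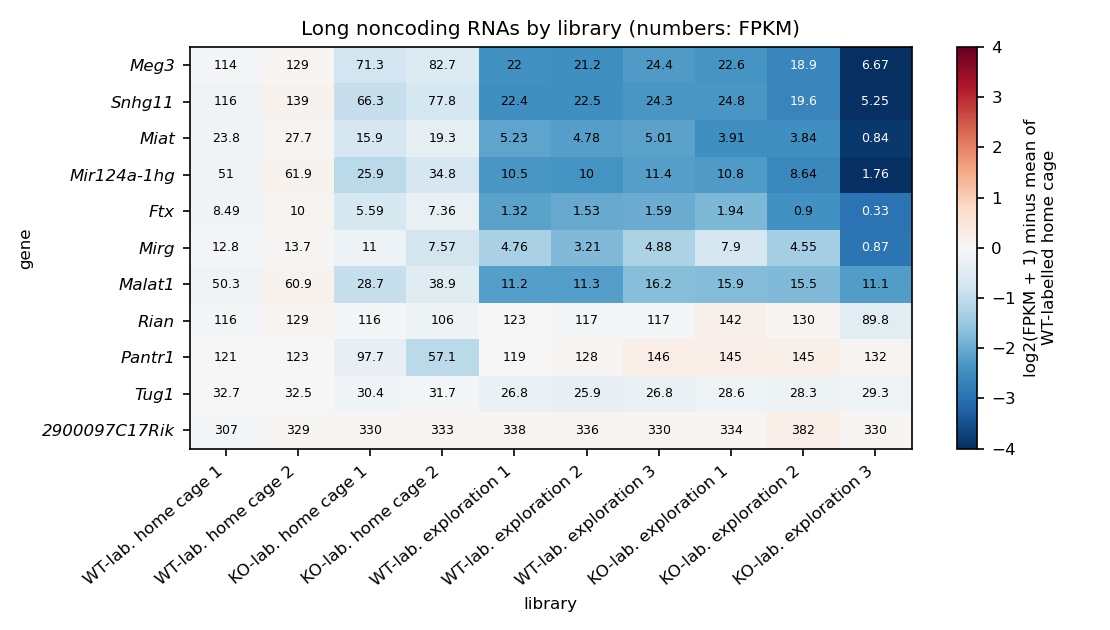
Meg3, Malat1 and other noncoding RNAs (rows) in the 10 libraries (columns); numbers are FPKM, and color is log2(FPKM + 1) minus the mean of the WT-labelled home cage libraries. Meg3, Snhg11, Miat and Mir124a-1hg are lowest in KO-labelled exploration replicate 3, and Mirg, Rian, Pantr1 and 2900097C17Rik overlap between environments.

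Malat1 ran most like Mbtd1 (r = 0.992 over 10 libraries, 0.93 over the 6 exploration libraries), A130077B15Rik (0.987 and 0.7) and Otud4 (0.985 and 0.93). Bc1 ran most like the ribosomal protein genes Rpl29 (0.981 and 0.73), Rpl13a (0.976 and 0.38) and Fau (0.971 and 0.54). Rpl13a measured 205.48 to 289.8 FPKM in the home cage, highest in the same KO-labelled replicate 1 that was highest for Bc1, and 329.38 to 397.86 FPKM after exploration. Rn28s1 ran most like the activity-induced genes Btg2 (0.965 and 0.62), Junb (0.953 and 0.58) and Egr4 (0.952 and 0.66), all higher in the exploration libraries. Rn28s1 was at 0 or 0.01 FPKM in the home cage, so its r over 10 libraries mostly restates the gap for which it was chosen. No link with these genes is read from it. For Rn18s the closest genes (Zmym1, Dennd5b and Ric1) had r of 0.954 to 0.959 over all libraries but -0.09 to 0.2 within exploration. Rn45s and Rn4.5s each ran most like Rn18s (0.99 in both cases), with 0.69 and 0.29 within exploration.

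Small structural RNAs were read beside BC1 and 4.5S RNA, most of them RNA polymerase III transcripts as these are. Of 10 such entries 7 were tested, and 1 rose and 2 fell, where 31.9% of all genes were called. Rn7sk, the RNA that holds the elongation factor P-TEFb inactive, measured 14.46 to 23.05 FPKM in the home cage and 9.27 to 19.45 FPKM after exploration (-0.27, SE 0.18, adjusted p = 0.271 in limma). The 2 entries that fell were Rn7s1 and Rn7s2, copies of the signal recognition particle RNA whose values were identical, so they count as 1 measurement (-0.48, SE 0.16, adjusted p = 0.0387), and this call was lost in 10 of 17 alternatives, with an adjusted p of up to 0.143. Rpph1, the RNA of RNase P, rose by 0.58 from a level under 1 FPKM, a value that depends on the pseudocount (1.55 at 0.1). A gene under 1 FPKM in every home cage library passes the filter only through the exploration libraries. Of 14 tested replication-dependent histone genes, whose messages end without a poly(A) tail, 3 rose and none fell, a smaller share than the 31.9% of all genes called. With the same sum without the 7 RNAs 1 rose and 3 fell, and Hist1h2bc (adjusted p = 0.131) and Hist2h2aa1 (0.172) lost their calls. With quantile normalization 2 rose and 1 fell. Hist1h2ao had the largest value, from 0 to 0.65 FPKM in the home cage to 2.11 to 4.3 FPKM after exploration (1.72, and 3.61 at a pseudocount of 0.1), and it was tested only because it passed the filter through the exploration libraries. Hist1h1c, a linker histone, was higher in KO-labelled home cage libraries by 0.82 (SE 0.14, adjusted p = 0.0152), a call lost with no filter on low values and without WT-labelled replicate 1 or KO-labelled replicate 2 (adjusted p up to 0.153).

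Hosts of small nucleolar RNAs, which guide the modification of ribosomal RNA, were mixed. Of 15 tested, 4 rose and 3 fell, with Snhg11 (-2.35, SE 0.3, adjusted p = 0.00044 in limma) and Snhg17 (-0.61) lowest and Snhg6 (0.62) and Snhg8 (0.41) highest among those called. Of 15 entries for small nucleolar and Cajal body RNAs 4 were tested. Snora81 fell (-1.21, adjusted p = 0.00237 in limma), a value that depends on the pseudocount (-2.27 at 0.1). It lies within a host gene, so its fragments may be shared. Of 3 tested microRNA entries, 2 are the host genes Mir124a-1hg and Mir22hg. Mir703 was the third and went opposite ways with the genotype label in the 2 environments. It was higher in KO-labelled home cage libraries (1.28, adjusted p = 0.0412 in limma) and lower after exploration (-1.46, adjusted p = 0.0297). Mir703 passed the filter only through the 2 groups where it was higher. It measured 1.01 and 1.94 FPKM in KO-labelled home cage and 1.89 to 2.82 FPKM in WT-labelled exploration libraries. In the other groups it was listed at 0 to 0.99 FPKM. These calls held in 8 of 17 and 9 of 17 alternatives.

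Genes of the machinery that makes and cuts ribosomal RNA changed in both directions, at shares near or below the 31.9% of all genes called. Of 15 genes of RNA polymerase I and its factors 2 rose and 3 fell, from Taf1c at -0.39 (adjusted p = 0.00726 in limma) and Polr1b at -0.28 (adjusted p = 0.0143) to Polr1d at 0.35 (adjusted p = 0.00578). With quantile normalization 3 rose and 0 fell, as Taf1c (adjusted p = 0.05), Polr1b (0.179) and Polr1a (0.209) lost their calls, and with the same sum without the 7 RNAs 1 rose and 4 fell. Of 25 pre-rRNA processing factors 3 rose and 2 fell, with Nhp2 (0.34) and Fbl (0.25), both of snoRNA particles, highest and Utp14a (-0.32) lowest among those called. The balance turned with the scaling, with 7 rises and 2 falls under median-of-ratios size factors, 5 and 1 under quantile normalization, and 1 and 5 with the same sum without the 7 RNAs, where Fbl lost its call (adjusted p = 0.0937). Of 23 genes of RNA polymerase III and its factors 3 rose and 5 fell, with Gtf3c2, a subunit of TFIIIC, lowest among those called at -0.40 (adjusted p = 0.00251). Gtf3c2 was also lower in KO-labelled libraries averaged over environments (-0.33, adjusted p = 0.0411), in 9 of 17 alternatives. Scaling each library to the same sum without the 7 RNAs gave 0 rises and 11 falls in this last list, since it moved the median of all genes to -0.13.

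Proteins that meet these RNAs were read last. Of 17 genes for proteins that bind BC1 or act with it in translation 3 rose and none fell, a smaller share than the 31.9% of all genes called: Ybx1 by 0.31 (SE 0.05, adjusted p = 0.00227 in limma), and the helicase Eif4a1 (0.19) and the cap-binding factor Eif4e (0.15) by less. Neither Eif4a1 nor Eif4e passed with quantile normalization (0.02 and 0.12) or with the same sum without the 7 RNAs (0.08 and 0.05), and under the latter 1 gene of the list rose and 1 fell. The Eif4e call held in 6 of 17 alternatives. Of 20 genes for proteins of nuclear speckles, paraspeckles and PRC2, the compartments and complex of Malat1 and Meg3, 1 rose and 6 fell, a share near the 31.9% of all genes called. The counts were 2 and 5 with median-of-ratios size factors, 1 and 4 with quantile normalization and 0 and 10 with the same sum without the 7 RNAs. The speckle scaffold genes Srrm2 (-0.53, SE 0.08, adjusted p = 0.0013) and Srrm1 (-0.46, adjusted p = 0.0022) fell most and the splicing factor Srsf3 rose (0.32), a call lost in the last of these scalings (0.21, adjusted p = 0.0512). In KO-labelled libraries, averaged over environments, Srsf5 (-0.65, adjusted p = 0.0211) and Srrm1 (-0.36, adjusted p = 0.0445) were lower. These calls held in 11 and 5 of 17 alternatives.

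The summed markers of interneurons and of blood stood apart between environments, and the sums of the other marker lists overlapped. The summed level of 5 interneuron markers was 161.48 to 175.07 FPKM in home cage and 196.82 to 273.03 FPKM in exploration libraries. Taken singly, Pvalb stood apart (34.69 to 43.28 and 49.76 to 70 FPKM), and Gad1, Gad2, Sst and Vip overlapped. The sum of 4 blood markers was 87.73 to 145.99 and 152.33 to 289.61 FPKM. Of these, Hbb-bs and Alas2 stood apart, and Hba-a1 and Hba-a2 overlapped. The 3 CA3 markers, of the neighbouring subfield, summed to 5.61 to 29.48 FPKM in the home cage and 18.47 to 45.92 FPKM after exploration, highest in the KO-labelled exploration libraries (32.76 to 45.92 FPKM). Astrocyte markers overlapped (57.99 to 116.46 and 69.09 to 100.66 FPKM). Choroid plexus markers reached 219.95 FPKM in WT-labelled home cage replicate 1 and 118.92 and 94.49 FPKM in WT-labelled exploration replicates 1 and 2, and were under 5 FPKM in all others. The part of these cell types in the differences of the 7 RNAs between environments was not tested.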

How the data were processed

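RNA sequencing values of CA1 were used from 10 libraries in 4 groups. The authors deposited FPKM per gene, in 1 table for each environment, with 2 decimals; the submitters' processing notes name HISAT, StringTie, GATK, Bowtie2, RSEM, GRCm38 and mm10, without their roles. Library selection (poly(A) or depletion) and the use of strand are not given in the sources used here. The tables were joined on NCBI gene ID (17986 genes). Of these, 11892 reached 1 FPKM in 2 or more libraries and were tested on log2(FPKM + 1) with limma 3.58.1 (R 4.3.3), using a variance trend, 1 mean per group over all 10 libraries (6 residual degrees of freedom) and Benjamini-Hochberg adjustment, and called at an adjusted p under 0.05. Fold changes on this scale understate the change of low genes. Rn45s, Rn28s1 and Rn4.5s passed the filter only through the environment where they are high. The fit was tested on simulated data. The estimate of depth used the spacing of low FPKM values, with transcript lengths from GENCODE less 50 nt, so it is approximate. The design text counts 2 and 2 animals for the home cage but does not name the exploration groups, so p-values there measure only the spread between these samples. Sequences came from GENCODE vM21 and RefSeq. The members and the lists were chosen with earlier results of these data known. Named genes were Neil3, the 7 members, and per list up to 2 called genes with the largest rise and fall. Genes called for the genotype label and the 3 genes most like each member were also named. Further list genes named beside them, among them Tug1, Rian, 2900097C17Rik, Polr1a, Polr1b and Kcnq1ot1, were chosen after their values were seen. Alternatives were another pseudocount (0.1), other filters (none, 5 FPKM), other scalings, no variance trend, only the groups compared, and leaving out each library. Some results, among them 1 gene of the lists, are not reported here.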

Additional observations from a re-analysis of the deposited data

Results flagged for a closer look

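Groups of 4 or more were had only by pooling genotype labels within an environment (4 home cage and 6 exploration libraries). In 4 of the 14 such groups of the 7 RNAs a library was far from the others. The rule flags about 1 in 20 groups by chance where values are spread normally. These groups pool genotype labels, and some hold mostly values of 0, so 4 of 14 cannot be set against that rate. Bc1 at 94.75 FPKM in KO-labelled home cage replicate 1 stood above the other 3 home cage libraries. Meg3 at 6.67 FPKM in KO-labelled exploration replicate 3 stood below the other 5 exploration libraries. Rn4.5s at 0.45 FPKM in WT-labelled exploration replicate 3 and Rn28s1 at 0.01 FPKM in KO-labelled home cage replicate 1 were the values above 0 in groups otherwise listed at 0. The rule flags any such value, whatever its size. Among list genes, the genotype effect differed between environments for Mir703 by -2.74 on the log2(FPKM + 1) scale (adjusted p = 0.0496 in limma). That call held in 8 of 16 alternatives and was lost when any 1 of 5 libraries was left out (adjusted p up to 0.223 over the alternatives). Mir703 was listed at 0 in both WT-labelled home cage libraries and at 2.82 FPKM or less everywhere.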

How the results depend on the processing

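The order of the environments held for the 7 RNAs under each alternative run, except that Rn28s1 was not tested with the filter of 5 FPKM. The 7 RNAs were chosen on this contrast and do not overlap between environments. Their order could hardly have turned, and nothing is read from its holding. At a pseudocount of 0.1 the difference became -5.5 for Rn45s, 4.95 for Rn28s1 and -6.27 for Rn4.5s, which are near 0 in 1 environment. Members called for the genotype label in the home cage numbered 0 at a pseudocount of 0.1, with no filter, with a filter of 5 FPKM and with the same sum without members, 2 with only the home cage groups, and 0 to 3 when each library was left out in turn. The count over the leave-one-out fits was 0 to 1 averaged over environments and 0 to 1 for the difference of the genotype effects.

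Genes called for the genotype label in the home cage were 425, but 47 with no filter and 13 to 588 over the leave-one-out fits. After exploration they were 71, but 16 with no filter, 37 with no variance trend, 37 with only the exploration groups and 17 to 104 over the leave-one-out fits. Averaged over environments they were 253, but 54 with no filter, 427 with quantile normalization and 28 to 319. For the difference of the genotype effects they were 104, but 68 with a filter of 5 FPKM, 0 at a pseudocount of 0.1, with no filter or with no variance trend, and 0 to 436. Between environments they were 3790, with 1916 to 4248 over the leave-one-out fits. The causes were not tested.

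Values near 0 changed sign. For the genotype effect after exploration, Rn18s ranged from just below 0 (rounded to 0) to 0.32 and Bc1 from -0.33 to 0.08 when libraries were left out. For the difference of the genotype effects, the range was -0.29 to 0.09 for Rn18s, -0.12 to 0.31 for Rn4.5s and -0.27 to 0.54 for Meg3, and at a pseudocount of 0.1 the value was -0.52 for Rn4.5s and 0 for Meg3. No paired analysis was possible because the replicates are numbered in accession order and nothing pairs them. Leaving out a home cage library left 1 in its group, which was taken to vary like the other groups. With 1 fragment on 1 kb worth 0.052 to 0.055 FPKM, depth limits Rn45s, Rn28s1 and Rn4.5s where they are low.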
